A study of Mus musculus with 20 samples.

Results

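The lysosome breaks down what a cell takes in or discards, and this account follows 37 mouse genes for its digestive enzymes, the proton pump that acidifies it, its membrane proteins and their transcriptional regulator Tfeb. Members were matched by the gene symbol that the array platform gives each probe set, a group of probes read as a single value, and a gene with several would have been read from the brightest of them on average over the 20 arrays. A probe set was found for 36 of the 37 members, out of 19505 named genes and 22206 probe sets in all, and each of the 36 had 1 probe set. The remaining member, Atp6v0c, was not analysed here.

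The study profiled epididymal fat pads, the visceral fat beside the testis, from male C57BL/6 littermates killed at 28 weeks of age. Every mouse carried 2 loxP-flanked copies of the tumour necrosis factor gene (TNF-αFlox/FLox). The 10 mice called wt lacked Cre (LyzMcre-/-), and the 10 called cre were LyzMcre+/-, in which lysozyme M, a promoter active in myeloid cells such as macrophages and neutrophils, drives the Cre recombinase that deletes the flanked gene. Purified high-fat food, with fat supplying 40% of calories, replaced chow in every cage at 10 weeks and was fed for 18 weeks, so no lean group was compared. Arrays were run as 2 batches, named in the sample titles, each with 5 mice of each genotype.

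Lysosomal digestion needs an acid lumen, and the vacuolar proton ATPase supplies it. Its V1 sector splits ATP in the cytosol and turns a rotor, and its V0 sector in the membrane carries protons through. The acid activates cathepsins, which cut proteins, and other hydrolases that take apart lipids and sugars. Acid lipase, the product of Lipa, releases fatty acids and cholesterol from the lipid that macrophages take up, and Npc2 and Npc1 hand that cholesterol out of the lysosome. TFEB and its relatives switch on many of these genes together through a promoter motif built around CACGTG, known as the CLEAR element. In obese fat, macrophages that gather around adipocytes and take up their lipid are known for a large lysosomal compartment.

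The motif was looked for in RefSeq promoter sequence of assembly GRCm38.p6, which held 28 of the 36 members. Within the 250 bases before the start of transcription, CACGTG stood in 6 of these 28 members (21.4%) and in 6.86% of 27025 genes in the same table. The longer palindrome TCACGTGA, which contains CACGTG, stood in 3 of the 28 (10.7%), Atp6v1a, Ctsa and Mcoln1, and in 0.907% of all genes. Both motifs read the same on either strand. The 6 stretches are printed because they show how many copies each promoter holds and how close they lie to the start, with the motif in capitals and each line read 5′ to 3′ on the strand of its gene.

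Ctsa, chr2:164833731-164833772, plus strand: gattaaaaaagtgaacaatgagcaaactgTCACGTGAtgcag
Atp6v0b, chr4:117887330-117887395, minus strand: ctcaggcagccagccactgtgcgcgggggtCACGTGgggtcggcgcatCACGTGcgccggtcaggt
Mcoln1, chr8:3500418-3500509, plus strand: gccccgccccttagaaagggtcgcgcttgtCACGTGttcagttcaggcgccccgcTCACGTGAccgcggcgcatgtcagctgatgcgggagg
Lamp1, chr8:13159070-13159160, plus strand: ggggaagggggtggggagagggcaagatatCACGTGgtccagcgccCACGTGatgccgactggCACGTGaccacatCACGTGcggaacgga
Ctsl, chr13:64370721-64370770, minus strand: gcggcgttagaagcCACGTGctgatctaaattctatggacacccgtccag
Atp6v1a, chr16:44139355-44139420, minus strand: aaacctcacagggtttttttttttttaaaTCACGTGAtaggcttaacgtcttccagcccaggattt

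Lamp1, a heavily glycosylated protein of the lysosomal membrane, held 4 copies between 61 and 15 bases before its start. Atp6v0b and Mcoln1, the latter a calcium channel of the lysosomal membrane, held 2 each. In Ctsl the single copy lay 236 bases upstream and in Ctsa 12 bases upstream. RefSeq annotates several starts for some genes. The windows of Ctsa, Ctsl and Atp6v1a, and by a few bases that of Atp6v0b, belong to a start inside the full span of the gene rather than its outermost one. A match describes these letters in this window and is not evidence of binding. Among the 6 genes, Atp6v1a, Ctsa and Lamp1 later proved to rise with the macrophage gene Adgre1, and Atp6v0b, Mcoln1 and Ctsl did not pass that test, so the motif was held by members on both sides.

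Levels are log2 signals from the deposited table, on which 1 unit is a doubling. The arrays were alike in overall brightness, with medians from 6.49 to 6.58. Tnf, the targeted gene, separated the genotypes completely, from 5.78 to 7.80 in wt and from 3.91 to 5.34 in cre, a difference of -1.99 (limma, adjusted p = 0.000822). The mean of 12 adipocyte genes lay between 14.40 and 17.04 in all 20 mice. It was lowest in wt 6, where the mean of 5 seminal vesicle genes was higher still, 16.78, against 7.31 in cre 3, the next highest mouse. In 4 animals the mean of another organ's genes exceeded the next mouse of the same genotype by more than 1 log2 unit. These were liver (14.85) and pancreas genes (6.48) in wt 4, seminal vesicle genes in wt 6 and cre 3, and bladder genes in wt 6 (6.96) and cre 2 (7.29). The rule asks for a gap and not for a high level. The pancreas mean lay below the median of its array, 6.53. The bladder means and the seminal vesicle mean of cre 3 lay little above the array medians. High values shared by several mice escape this rule. The liver mean ran from 7.23 to 12.99 in cre, with 12.99 in cre 4, 12.83 in cre 10 and 12.01 in cre 1, and was 11.82 in wt 9, and none of these 4 was set aside. In whole tissue, fewer cells of a type and less RNA per cell cannot be told apart.

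The first comparison asked whether loss of Tnf in myeloid cells went with a different level of the lysosomal genes. No member passed the adjusted threshold in either direction. Most point estimates lay slightly below 0: 32 of 36 members were lower in cre (29 after quantile normalization and 31 after median centring), beside 10943 of all 22206 probe sets. Members vary together across mice (median r = 0.47 over their pairs), so these are not separate signs. The mean over the members came to 13.18 ± 0.34 for wt mice against 12.99 ± 0.44 for cre mice (SD, n = 10 per genotype), a difference of -0.19. Tnf was the only probe set of the whole table to pass, which is 0.0045% of those tested. At an unadjusted p under 0.05 the limma test picked 3 members, all lower in cre (8.33%), beside 3.05% of all probe sets lower and 3.24% higher. All 3 encode parts of the proton pump: Tcirg1, Atp6v0b and Atp6v1f.

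Atp6v1f, chr6:29467783-29470509, encodes a small subunit of the V1 sector. Its signal ran from 10.10 over a median of 10.49 to 11.08 in wt, and from 9.08 over 9.97 to 10.47 in cre. The wt mean exceeded every one of the 10 cre values, although the ranges overlapped. The difference of -0.62 (SE 0.16, 95% interval -0.96 to -0.28) corresponds to a 1.53-fold higher signal in wt. Its exact permutation p, with genotype reassigned within batches, was 0.00107, and its adjusted p over all probe sets in limma was 0.736. It was lower in cre in both batches, by -0.45 in batch 1 and -0.78 in batch 2.

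Atp6v0b, chr4:117884330-117887333, encodes a proton-carrying subunit of the V0 rotor. It ran from 9.02 over 9.78 to 10.59 in wt and from 8.68 over 9.30 to 10.05 in cre, and the wt mean exceeded 9 of the 10 cre values. The difference was -0.58 (SE 0.21, 1.50-fold higher in wt), with an exact permutation p of 0.0172 and an adjusted p in limma of 0.77. The batches gave -0.48 and -0.68.

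Tcirg1, chr19:3896050-3907133, encodes the a3 form of the large V0 subunit, best known from osteoclasts. It ran from 10.19 over 10.74 to 12.23 in wt and from 8.72 over 10.52 to 11.00 in cre. The groups overlapped for the most part, and 2 cre mice, cre 7 at 8.85 and cre 9 at 8.72, lay well below the other 18. The difference was -0.70 (SE 0.30, 1.62-fold higher in wt; exact permutation p = 0.0487, adjusted p in limma 0.781). Leaving out wt 2, wt 5, wt 9, cre 7 or cre 9 in turn moved its unadjusted p above 0.05.

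**Figure D1:**
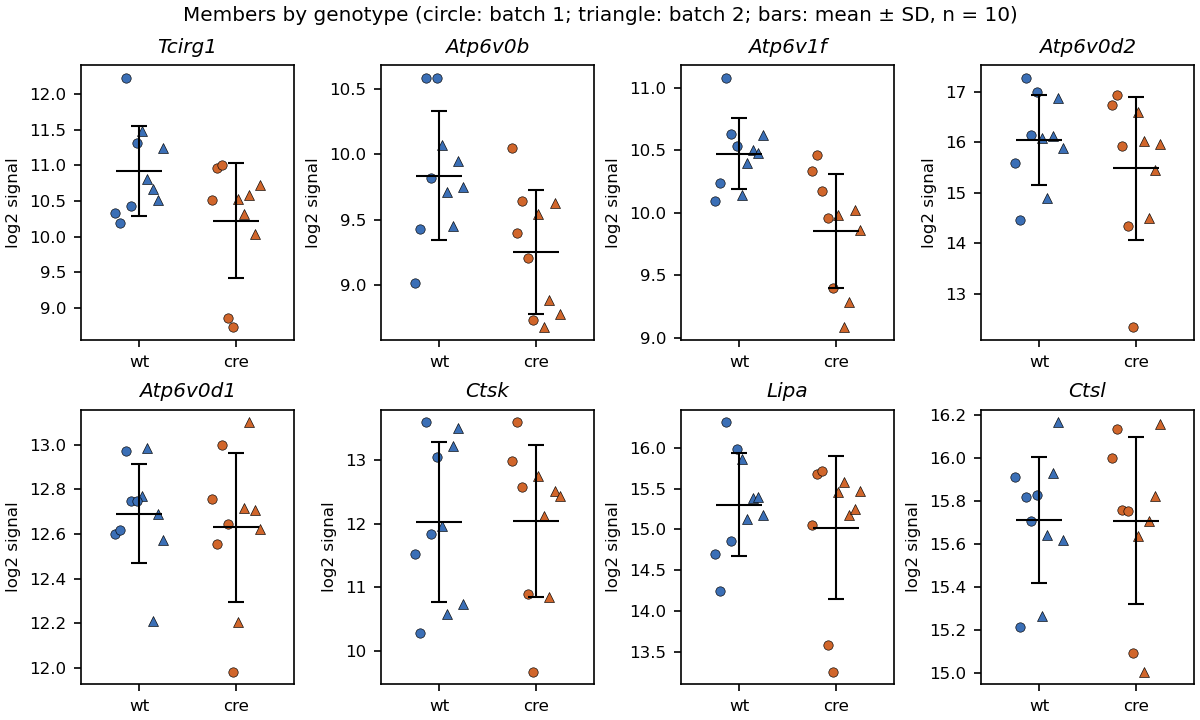
Log2 signal of 8 members (vertical axes, each with its own scale) in wt and cre mice (horizontal axis); points are mice, circles batch 1 and triangles batch 2, and bars give mean ± SD over 10 mice. The genotypes overlap in every panel; for Atp6v1f the wt mean lies above each of the 10 cre points, and for Tcirg1 and Lipa cre 7 and cre 9 lie at the bottom.

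The other pump genes did not reach that threshold. Atp6v0a1, the a1 form of the same large subunit, averaged 16.12 ± 0.34 in wt and 15.96 ± 0.62 in cre. Atp6v0d1, the widely expressed d subunit, averaged 12.69 ± 0.22 and 12.63 ± 0.33, and Atp6v0d2, its form in macrophages and osteoclasts, 16.04 ± 0.89 and 15.48 ± 1.41. The interval of the difference of Atp6v0d2 was wide, from -1.56 to 0.45, because its values in cre spread from 12.33 to 16.95. Atp6v1e1, a stalk subunit, was the member with the highest estimate in cre, 12.65 ± 0.27 against 12.49 ± 0.19, a difference of 0.16 (95% interval -0.09 to 0.40).

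Among enzymes and membrane proteins, no member reached an unadjusted p under 0.05 for genotype. The cysteine protease genes Ctsk (12.03 ± 1.26 in wt, 12.04 ± 1.20 in cre) and Ctsl (15.71 ± 0.29 and 15.71 ± 0.39) had means nearly alike, with 95% intervals of -1.03 to 1.05 and -0.34 to 0.33. Ctss, a cathepsin of antigen-presenting cells, averaged 16.06 ± 0.81 and 15.81 ± 0.82, and Lipa 15.30 ± 0.63 and 15.02 ± 0.88. Gusb, which encodes beta-glucuronidase, had the lowest estimate of the non-pump members, 12.20 ± 0.57 against 11.76 ± 0.95, a difference of -0.44 (95% interval -1.11 to 0.24). Tfeb itself gave a weak signal, near the array medians, from 6.33 to 7.20 in wt and from 6.13 to 7.23 in cre, with a difference of -0.22 (95% interval -0.54 to 0.09).

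**Figure D2:**
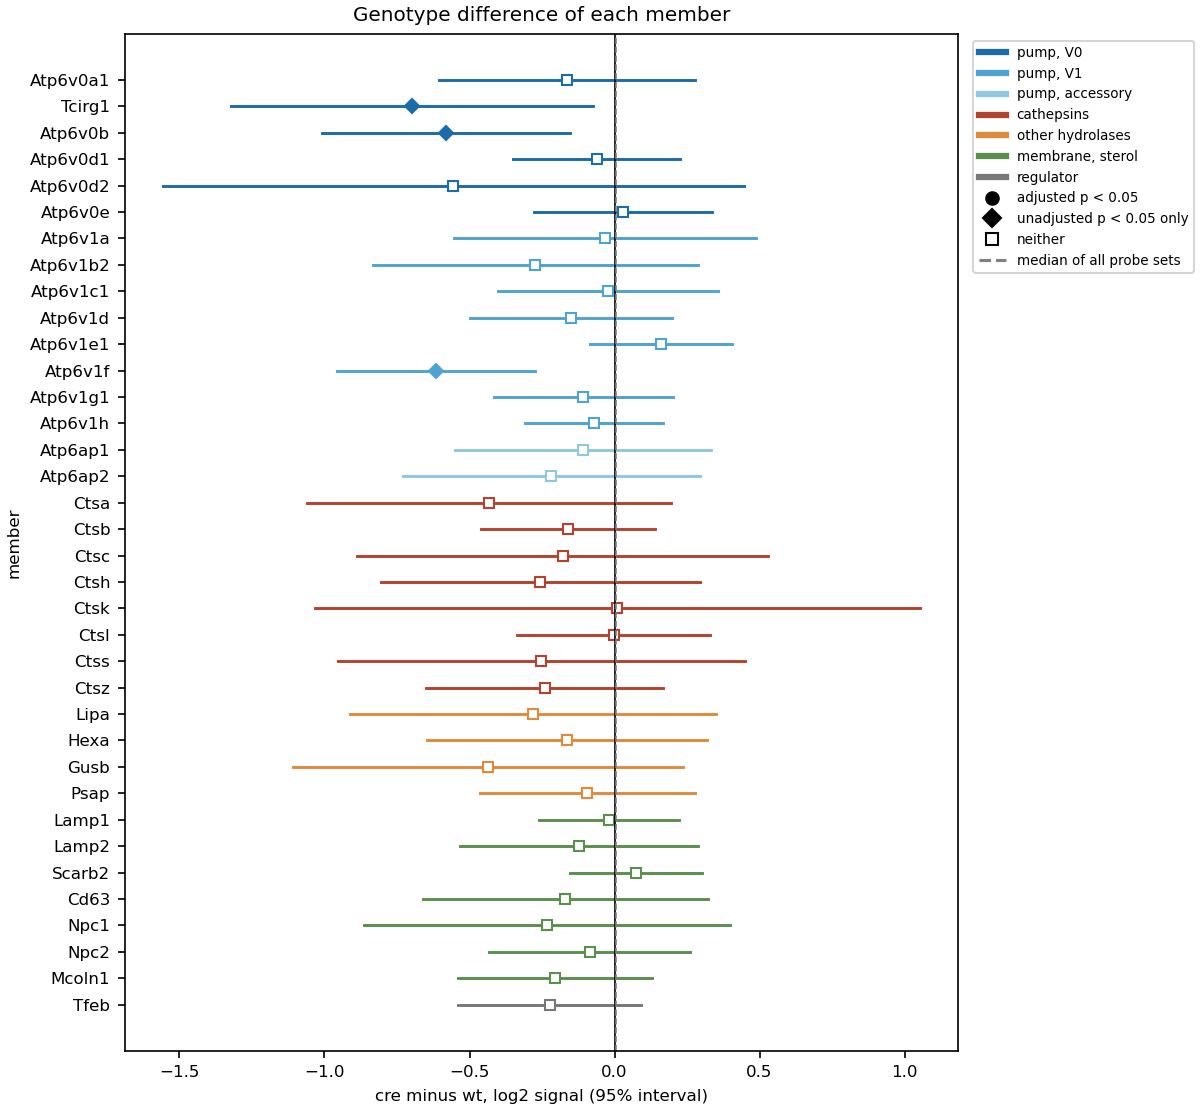
Difference in log2 signal, cre minus wt, for each of the 36 members (horizontal axis, with 95% interval from limma), grouped by role in colour; the dashed line is the median of all probe sets. No member passes the adjusted threshold, and the 3 filled diamonds below 0, Tcirg1, Atp6v0b and Atp6v1f, are those with an unadjusted p under 0.05.

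Macrophage genes leaned the same way as the members. All 15 macrophage markers had lower estimates in cre, 2 of them at an unadjusted p under 0.05 and 0 after adjustment, and their mean ran from 11.74 to 13.84 in wt and from 10.26 to 13.11 in cre. With that mean as a covariate in limma, the mean member difference was 0.01, with 22 members above 0 and 14 below. Atp6v1f (-0.53, p = 0.00334, adjusted p = 0.699) and Atp6v0b (-0.40, p = 0.0265, adjusted p = 0.75) then still had an unadjusted p under 0.05, and Tcirg1 had -0.36 (p = 0.07, adjusted p = 0.797). All 12 adipocyte markers leaned higher in cre, and with their mean as covariate the mean member difference was -0.11. Of the other lists, liver genes had higher estimates in cre for 7 of 7 (mean 1.55), mesothelial genes lower for 6 of 6 (mean -0.44) and T cell genes lower for 4 of 4 (mean -0.26), with 0 of them past the adjusted threshold. The part of any of these cell types in the differences was not tested beyond the fits given.

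The mean member difference also rested on a few mice. It was -0.27 in batch 1 and -0.11 in batch 2, and it moved from -0.19 to -0.08 without cre 9 and to -0.12 without wt 5. Of the 36 members, 28 were lower in cre in batch 1, 23 in batch 2 and 25 without cre 9. The count was 27 without wt 5 and 27 with array weights. Median differences over all probe sets in these 5 fits ran from -0.0023 to 0.0192. Without the 4 mice with genes of other organs the mean member difference was -0.34, with 34 of 36 members lower. The median difference over all probe sets was then 0.0032. A genotype difference that itself differed between batches passed the adjusted threshold for 0 members; 1 member, Atp6v1d, had an unadjusted p of 0.041, beside 7.41% of all probe sets with one under 0.05.

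The second comparison asked how the members vary with macrophage content from mouse to mouse, taking as its gauge Adgre1, which encodes an adhesion receptor on the surface of mouse macrophages. Adgre1 ran from 11.41 over 12.55 to 14.29 in wt and from 10.66 over 12.68 to 13.91 in cre, and its genotype difference was -0.28 (adjusted p in limma 0.912). With genotype and batch held, 21 of 36 members (58.3%) rose with Adgre1 and 0 fell, beside 6.26% of all probe sets rising and 2.57% falling. The median slope was 0.35 log2 units per log2 unit of Adgre1 over the members and -0.02 over all probe sets. Enzymes were well represented among the 21: 7 of 8 cathepsins and all 4 of the other hydrolase and saposin genes rose, against 7 of 16 pump genes, a contrast that was not tested itself.

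**Figure D3:**
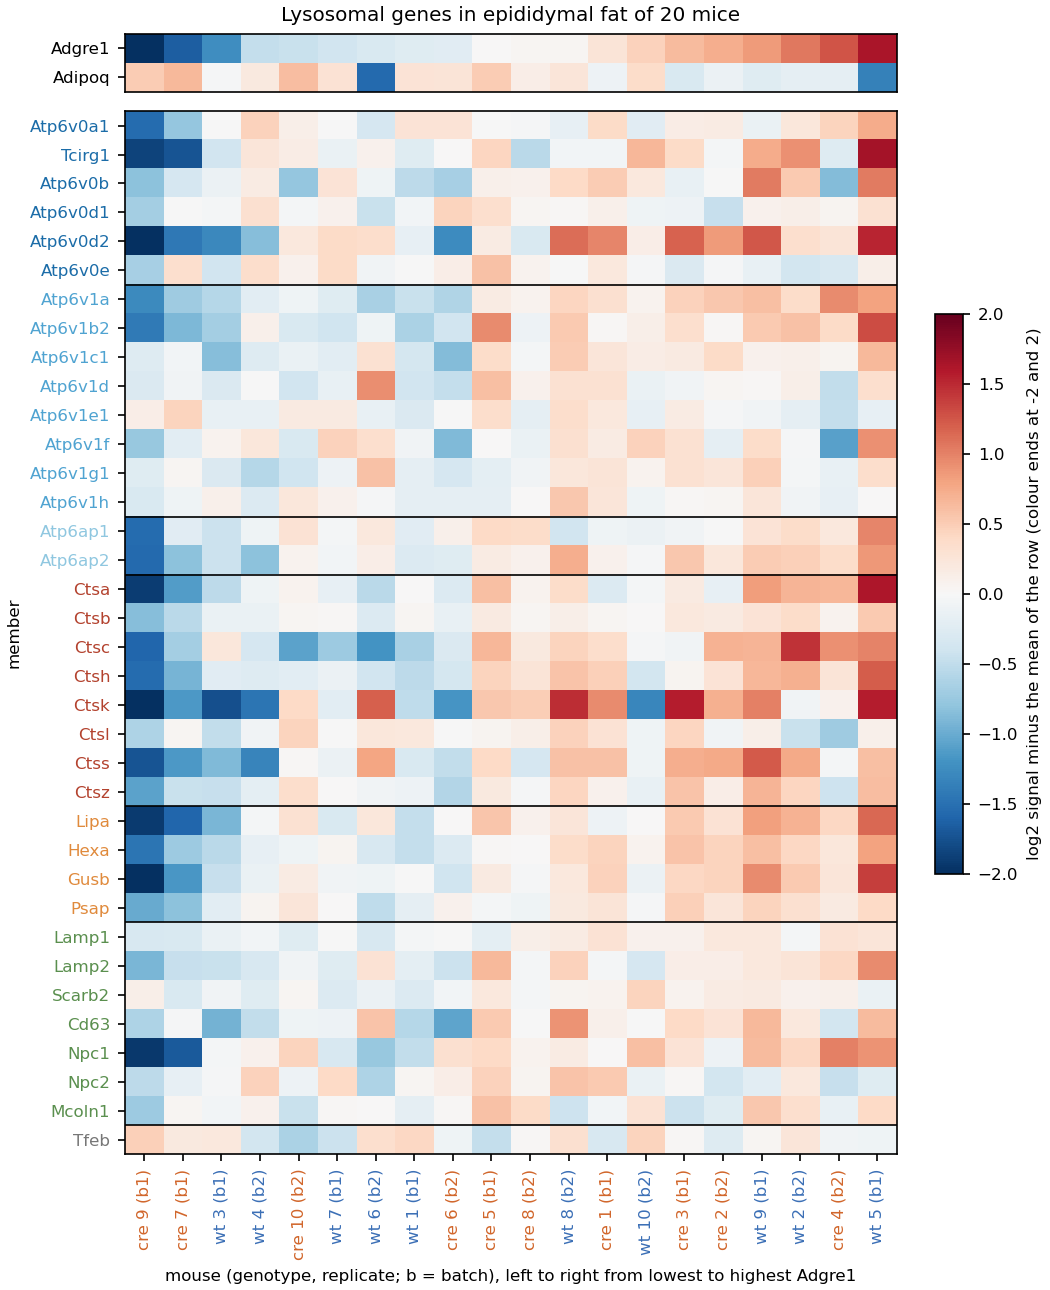
Log2 signal of each member minus its mean over the 20 mice (colour, red high and blue low), with members in rows grouped by role and mice in columns ordered by Adgre1; the upper rows show Adgre1 and Adipoq, mouse names are blue for wt and orange for cre, and b1 and b2 mark the batch. The rows of Lipa, Gusb, Ctsa and Atp6v0d2 turn from blue at the left, where cre 9 and cre 7 stand, to red at the right, where wt 5 stands, and rows such as Atp6v1e1, Npc2 and Tfeb do not.

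Among pump genes, Atp6v0d2 had the steepest slope of all 36 members, 1.07 (SE 0.16, adjusted p = 0.000155 in limma), so a doubling of Adgre1 went with a 2.09-fold higher signal. Its lowest value, 12.33, was in cre 9, the mouse with the lowest Adgre1, and its highest, 17.28, in wt 5, the mouse with the highest. Atp6v0d1, which does the same job in most cells, had a slope of 0.11 (95% interval -0.06 to 0.27, adjusted p = 0.473), and its interval lay wholly below that of Atp6v0d2, 0.73 to 1.41; the difference between the slopes was not tested itself. Over the 20 mice the pair had r = 0.28 and rho = 0.09 (permutation p = 0.32 and 0.71), with r = -0.12 without cre 2 and cre 9, and it went in opposite ways in the batches, r = 0.77 in batch 1 and -0.71 in batch 2.

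Both members that encode forms of the large V0 subunit rose. Tcirg1 had a slope of 0.66 (SE 0.10, adjusted p = 0.000181) and Atp6v0a1 one of 0.37 (SE 0.10, adjusted p = 0.0162). The call for Atp6v0a1 was lost without cre 9 (slope 0.24, adjusted p = 0.141) and without wt 5 (0.35, adjusted p = 0.0833). The slope of Atp6v0a1 was higher in cre than in wt by 0.41 (unadjusted p = 0.0286, adjusted p = 0.995), the only member with an unadjusted p under 0.05 for that difference, beside 3.96% of all probe sets. In the V1 sector, Atp6v1a (0.59, adjusted p = 9.83e-06) and Atp6v1b2 (0.59, adjusted p = 0.000177), whose products together form the ATP-splitting ring, rose. The other 6 V1 members did not pass, with slopes from -0.08 for Atp6v1e1 to 0.26 for Atp6v1c1. Both accessory proteins of the pump rose, Atp6ap2 by 0.54 and Atp6ap1 by 0.38 per log2 unit. The call for Atp6ap1 was lost with the adipocyte gene Adipoq in the same fit (0.34, adjusted p = 0.059).

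Atp6v0b, with 0.31 (adjusted p = 0.0624), and Atp6v1f, with 0.14 (adjusted p = 0.389), which had the smallest unadjusted p for genotype, did not pass in the Adgre1 fit. Atp6v0b did pass in 6 alternatives, among them batch 1 alone (0.41, adjusted p = 0.0409), array weights (0.30, adjusted p = 0.0477) and the mean of the macrophage list in place of Adgre1 (0.37, adjusted p = 0.0135). Atp6v0e, a small V0 subunit, had a slope of 0.01 and Atp6v1h, a V1 regulator subunit, 0.04.

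**Figure D4:**
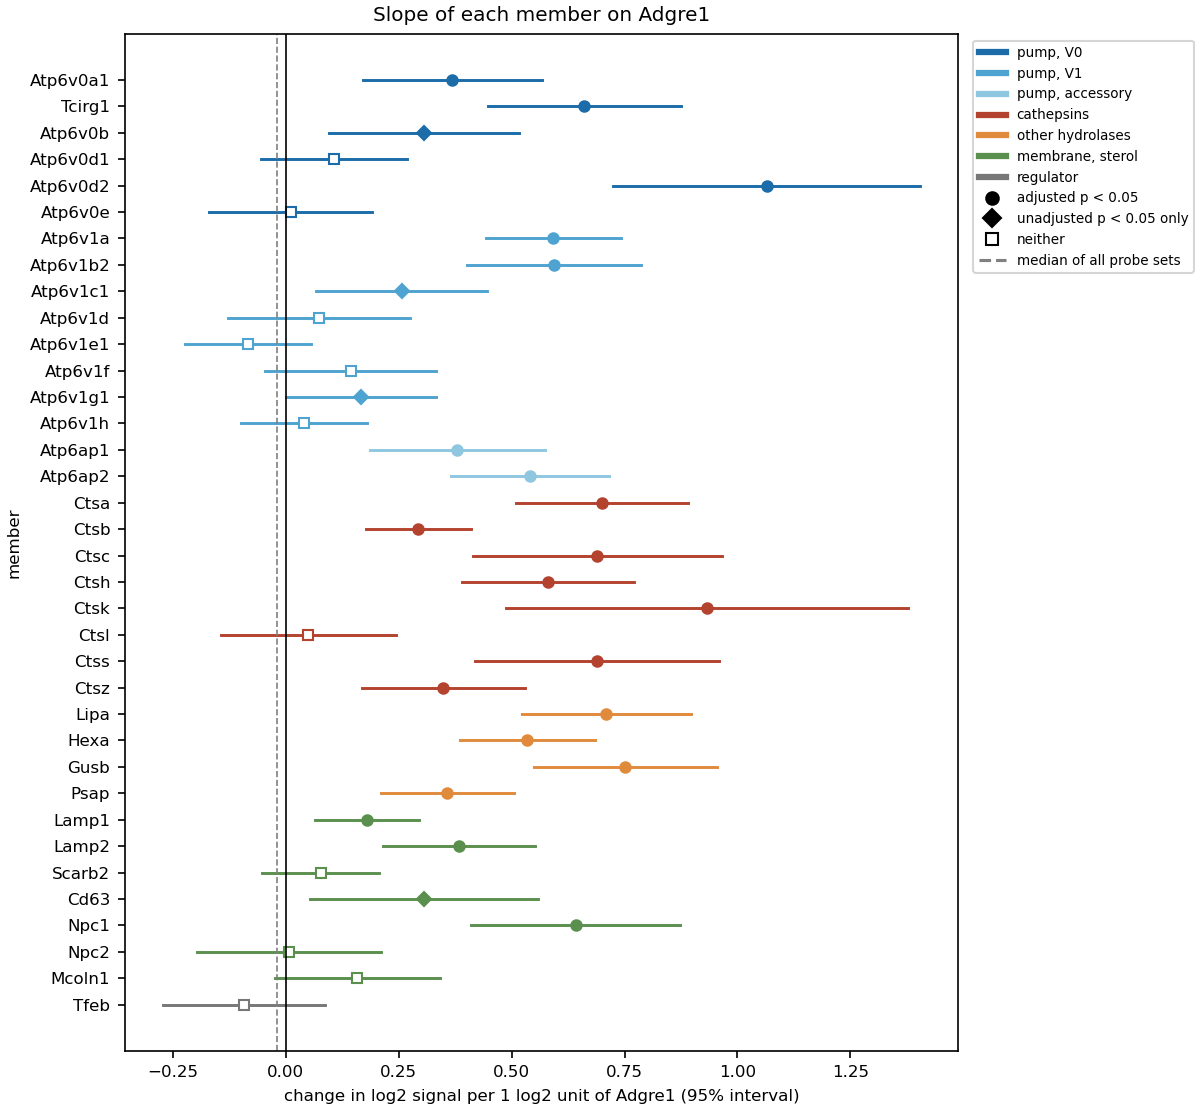
Slope of each member on Adgre1, in log2 units per log2 unit (horizontal axis, with 95% interval from limma with genotype and batch held), grouped by role in colour; the dashed line is the median slope of all probe sets. The 21 filled circles, all above 0, passed the adjusted threshold, led by Atp6v0d2 at 1.07 and Ctsk at 0.93.

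Of the cathepsins, Ctsk, a collagen-cutting protease best known from osteoclasts, had the steepest slope, 0.93 (SE 0.21, adjusted p = 0.00692). Without cre 9 it was 0.80 with an adjusted p of 0.0536, and with Adipoq in the same fit 0.72 with an adjusted p of 0.0651. Ctsa, a carboxypeptidase that also protects other lysosomal enzymes (0.70, adjusted p = 2.16e-05), Ctsc, which activates granule proteases (0.69, adjusted p = 0.00154), and Ctss (0.69, adjusted p = 0.00126) followed. Ctsh, Ctsz and Ctsb rose by 0.58, 0.35 and 0.29 per log2 unit. Ctsl, a broadly expressed cysteine protease, was the cathepsin that did not pass, with 0.05 (95% interval -0.14 to 0.24, adjusted p = 0.818). Ctsk and Ctss are neighbours on chromosome 3, at 95499210-95509387 and 95526786-95556405, and their signals varied together, r = 0.87 and rho = 0.82 (permutation p = 3e-05 and 0.00015), with r = 0.81 without wt 3 and cre 9 and r = 0.95 and 0.74 within batches 1 and 2.

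All 4 lipid and sugar hydrolase and saposin genes rose. Gusb rose by 0.75 per log2 unit of Adgre1 (adjusted p = 2.1e-05), Lipa by 0.71 (adjusted p = 1.58e-05), Hexa, which encodes the alpha chain of beta-hexosaminidase, by 0.53 (adjusted p = 3.28e-05), and Psap, the precursor of the saposins that help lipid hydrolases, by 0.36 (adjusted p = 0.00203). In single mice Lipa ran from 14.24 over 15.28 to 16.32 in wt and from 13.26 over 15.35 to 15.72 in cre. Its correlation with Adgre1 over 20 mice was r = 0.90 and rho = 0.79 (permutation p = 4e-05 and 0.00074), and r = 0.81 without cre 7 and cre 9. The lowest correlation between any 2 of these 4 genes over the mice was 0.86, between Lipa and Psap.

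Membrane and sterol genes were mixed. Npc1, which moves cholesterol out through the lysosomal membrane, rose by 0.64 (adjusted p = 0.000588), whereas Npc2, its soluble partner, had a slope of 0.01 (95% interval -0.20 to 0.21). Lamp2 rose by 0.38 and Lamp1 by 0.18 (adjusted p = 0.00362 and 0.046). The call for Lamp1 was lost without the 4 mice with genes of other organs (adjusted p = 0.162) and with Adipoq in the same fit (0.0685). Scarb2, the receptor that brings beta-glucocerebrosidase to lysosomes, Cd63, a tetraspanin of late endosomes, and Mcoln1 had slopes of 0.08, 0.31 and 0.16 without passing. Tfeb had the lowest slope of the 36, -0.09 (95% interval -0.27 to 0.09, adjusted p = 0.595), with r = -0.19 and rho = -0.05 (permutation p = 0.41 and 0.83).

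No member passed from batch 2 alone. Within batch 1, 23 members rose with Adgre1 at an adjusted p under 0.05 (5.26% of all probe sets did), 20 of them among the 21 (Lamp1, with 0.16 and an adjusted p of 0.263, was the exception); within batch 2, 0 members and 0 of all probe sets passed, and 28 member slopes were positive, 5 of them at an unadjusted p under 0.05. Adgre1 itself spread less in batch 2, from 12.17 to 13.91 (SD 0.63), than in batch 1, from 10.66 to 14.29 (SD 1.15). The slope was higher in batch 1 for 31 of 36 members, beside 11209 of 22205 probe sets. Tested as an interaction, which was added after the slopes of each batch were seen, the difference passed the adjusted threshold for 0 members and an unadjusted p under 0.05 for 8 (22.2%), beside 5.65% of all probe sets.

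Those 8 were Tcirg1, Atp6v1f, Ctsk, Ctsl, Ctsz, Lipa and Gusb with lower slopes in batch 2 and Ctsc with a higher one. Ctsl gave the smallest p: its slope was 0.23 in batch 1 and -0.46 in batch 2 (difference -0.68, unadjusted p = 0.000661, adjusted p = 0.612), so its overall slope near 0 joined estimates of opposite sign. Ctsk had 1.25 in batch 1 and 0.10 in batch 2, Lipa 0.86 and 0.24, and Tcirg1 0.84 and 0.17. Atp6v1a had 0.58 and 0.64, Lamp1 0.16 and 0.19, and Ctsc 0.55 and 1.16.

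**Figure D5:**
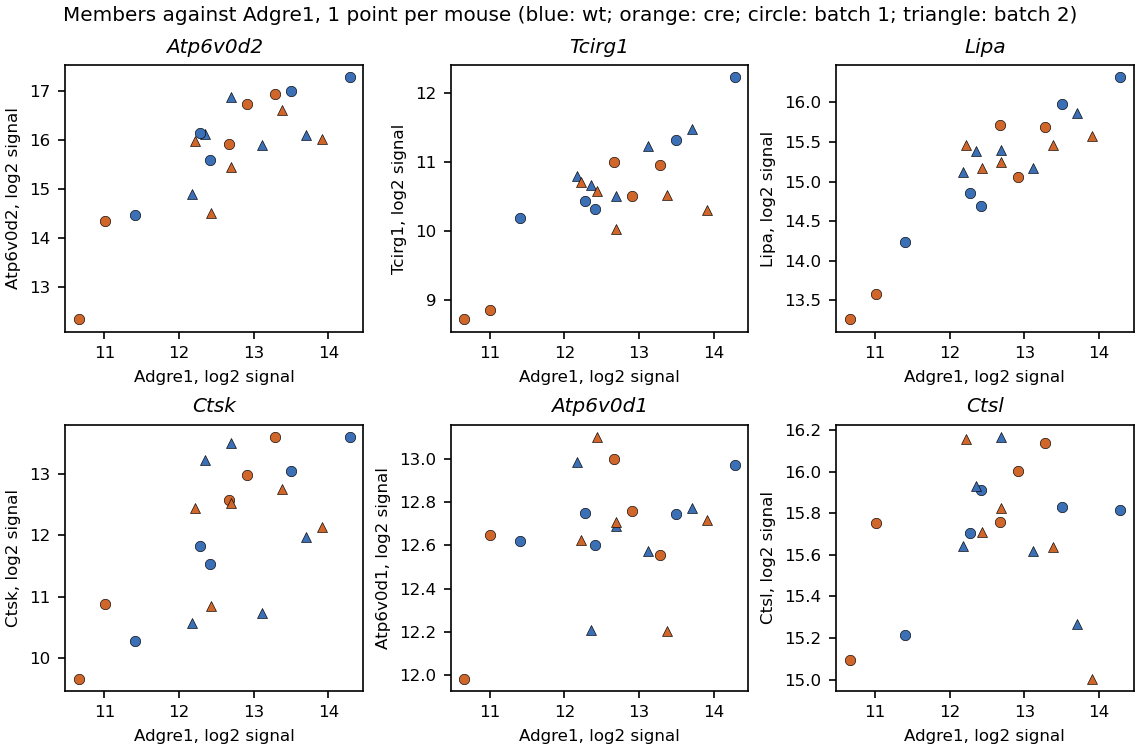
Log2 signal of 6 members (vertical axes) against Adgre1 (horizontal axes), 1 point per mouse, blue wt and orange cre, circles batch 1 and triangles batch 2. Slopes among the circles were 1.27 (Atp6v0d2), 0.84 (Tcirg1), 0.86 (Lipa), 1.25 (Ctsk), 0.16 (Atp6v0d1) and 0.23 (Ctsl). Among the triangles they were, in the same order, 0.51, 0.17, 0.24, 0.10, -0.08 and -0.46.

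A difference in slope between cre and wt passed the adjusted threshold for 0 members. Within wt alone the correlation of Tcirg1 with Adgre1 was 0.93 and within cre alone 0.79; for Lipa these were 0.92 and 0.89, for Atp6v0d2 0.79 and 0.85, and for Ctsk 0.57 and 0.78. A pair of mice stood at the ends of the range: the mouse cre 9 was lowest for 25 of 36 members and wt 5 highest for 17. Without cre 9, 16 members rose with Adgre1 (4.24% of all probe sets did), and without wt 5, 18 (3.76%).

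The third comparison took Adipoq, which encodes the adipocyte hormone adiponectin, as its gauge. Adipoq ran from 17.38 over 19.02 to 19.29 in wt and from 18.63 over 19.12 to 19.57 in cre, with a genotype difference of 0.40 (adjusted p in limma 0.818). It was low in wt 5 (17.57) and wt 6 (17.38), and it was related to Adgre1 with r = -0.51 and rho = -0.65 (permutation p = 0.02 and 0.0039), -0.80 in batch 1 and -0.07 in batch 2. No member rose or fell with Adipoq at an adjusted p under 0.05, beside 3.83% of all probe sets rising and 2.26% falling. Slopes were negative for 31 of 36 members, beside 10428 of 22205 probe sets. At an unadjusted p under 0.05 in limma, 10 members (27.8%) fell, beside 8.99% of all probe sets.

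Ctsk had the steepest negative slope on Adipoq, -1.30 (SE 0.40, adjusted p = 0.056), with r = -0.55 and rho = -0.61 over the mice (permutation p = 0.014 and 0.0094) and r = -0.45 without wt 5 and wt 6. Atp6v0d2 had -0.92 (SE 0.42, adjusted p = 0.245), Ctss -0.76 (adjusted p = 0.133), Lipa -0.64 (adjusted p = 0.175) and Gusb -0.62 (adjusted p = 0.238). Atp6v1g1, a V1 stalk subunit, had the smaller slope of -0.38 with less spread (SE 0.12, adjusted p = 0.0617) and r = -0.67, which was alike in both batches, -0.67 and -0.70. Npc2 had the highest slope, 0.30 (adjusted p = 0.274), then Atp6v1e1 (0.14), Atp6v0e (0.10), Atp6v0d1 (0.07) and Scarb2 (0.01).

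The Adipoq count moved with the mice included. Without wt 6, whose fat carried seminal vesicle genes, 12 members fell with Adipoq at an adjusted p under 0.05, beside 5.35% of all probe sets. Array weights, which turn down arrays that depart from the rest, also gave 12 (5.58%). Without all 4 mice with genes of other organs the count was 3 of 36, beside 2.95% of all probe sets. Without wt 8 or cre 5 it was 2 (2.22% and 2.83% of all probe sets), and without wt 10 or cre 10 it was 1 (1.92% and 1.88%). Lipa had a slope of -1.09 (adjusted p = 0.0205), Gusb -1.18 (adjusted p = 0.0164) and Ctsa -1.06 (adjusted p = 0.0177) without wt 6. The wt 6 array also correlated least with the others, 0.949 on average. With Adgre1 and Adipoq in the same fit, 18 members rose with Adgre1 and 0 fell with Adipoq, where 18 slopes were positive and 18 negative.

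Among themselves the members varied together to unequal degrees. Over 630 pairs the median correlation across the 20 mice was 0.47, and 554 pairs were positive. It was 0.90 within the 4 other hydrolase and saposin genes, 0.75 within the 8 cathepsins, 0.41 within the 16 pump genes and 0.27 within the 7 membrane and sterol genes. Ctsb and Gusb made the closest pair, 0.95, and Atp6v0e and Tfeb the most opposed, -0.61. Tcirg1 and Atp6v0a1 had r = 0.72 but rho = 0.30 (permutation p = 0.012 and 0.18), and r = 0.27 without cre 7 and cre 9, so their relation rested on those mice. Npc1 and Npc2 had r = 0.23 and rho = 0.04 (permutation p = 0.37 and 0.87; r = -0.10 without cre 7 and cre 9), and Lamp1 and Lamp2 r = 0.46 and rho = 0.47 (permutation p = 0.058 and 0.045; r = 0.44 without wt 6 and cre 9). Ctsl was loosely tied to Ctss, r = 0.44 and rho = 0.40, and to Ctsb, r = 0.29 and rho = 0.24 (permutation p from 0.067 to 0.33).

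Lipid-associated macrophages were read from 7 marker genes that are not members, Trem2, Gpnmb, Cd9, Fabp5, Mmp12, Itgax and Lpl. Which cells of the whole fat gave the signals of these 7 genes was not determined. Atp6v0d2 followed their mean closely, r = 0.96 and rho = 0.93, with 0.97 in batch 1 and 0.87 in batch 2, and Ctsk did so with r = 0.90 and rho = 0.91, 0.96 in batch 1 and 0.82 in batch 2. In batch 2 alone the correlations of the same genes with the single gene Adgre1 were 0.42 and 0.07. With the mean of the 15 macrophage markers they were 0.58 and 0.38 in that batch. Tcirg1 had r = 0.82 with that mean, 0.93 in batch 1 and 0.07 in batch 2, Ctsl 0.51, Npc2 0.22 and Atp6v1e1 -0.11. These relations were chosen after the values were seen and are given as descriptions. Genes of multinucleated giant cells and osteoclasts, which also use Atp6v0d2, Tcirg1 and Ctsk, had a mean between 7.42 and 8.09 in all mice.

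A further 71 lysosomal genes outside the list show how wide the pattern was. None passed for genotype; 5 were lower and 1 higher in cre at an unadjusted p under 0.05, beside 3.05% and 3.24% of all probe sets, and the lowest p in each group fell to Naglu (-0.56, adjusted p = 0.77), Nagpa (-0.71, adjusted p = 0.77), Rragc (0.22, adjusted p = 0.81) and Atp6v1c2 (0.23, adjusted p = 0.843). With Adgre1, 21 of the 71 rose (29.6%) and 3 fell, beside 6.26% and 2.57% of all probe sets, with a median slope of 0.13. Of 30 other hydrolases 14 rose, with the smallest p-values for Lgmn, the protease legumain (0.92, adjusted p = 9.69e-07), the phospholipase gene Pla2g15 (0.71, adjusted p = 0.00012) and the carboxypeptidase gene Scpep1 (0.50, adjusted p = 0.000175). Of 19 membrane and sorting proteins 4 rose and 2 fell: Igf2r, which sorts enzymes by their mannose 6-phosphate tag, rose by 0.62, Slc11a1, a metal transporter of phagocytes, rose by 0.91, and Sort1, the sorting receptor sortilin, fell by 0.43 on the log2 scale (adjusted p = 2.1e-05, 2.18e-05 and 0.000177). The other gene that fell was Laptm4b (-0.53), named after its value was seen.

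Of the 8 other pump subunits, mostly forms of specialised tissues, none passed as rising with Adgre1. Atp6v0a2 came nearest, with a slope of 0.15 (limma, unadjusted p = 0.0459, adjusted p = 0.216). The signal levels of the 8 were not examined. Atp6v0e2, a second form of the e subunit, fell by 0.66 with Adgre1 (adjusted p = 0.00686) and rose by 0.96 with Adipoq (adjusted p = 0.0387), whereas the member Atp6v0e had slopes of 0.01 and 0.10. Atp6v1g3 and Atp6v1c2 had -0.24 and -0.20 on Adgre1 without passing. Of 14 other regulators 3 rose with Adgre1: Mitf (0.60, adjusted p = 6.53e-05) and Tfe3 (0.50, adjusted p = 0.000557), both relatives of Tfeb that bind the same motif, and Flcn (0.31, adjusted p = 0.00979), which acts on them through the lysosomal nutrient-sensing machinery. The 95% interval of Tfeb, -0.27 to 0.09, lay below all 3 estimates, although the differences between slopes were not tested. Tfeb gave a weak signal, with a mean of 6.76 near the array medians, which limits what its slope can show.

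On Adipoq, 6 of the 71 fell and 2 rose, beside 2.26% and 3.83% of all probe sets. Those that fell included Man2b1, a mannosidase gene (-0.78, adjusted p = 0.00452), the cystine transporter gene Ctns (-0.71, adjusted p = 0.0109), Slc17a5 (-0.67, adjusted p = 0.0376), Litaf (-0.54, adjusted p = 0.0418), Rragd (-0.77, adjusted p = 0.00429) and Mitf (-0.75, adjusted p = 0.0246). Those that rose were Atp6v0e2 and Acp5, which encodes the tartrate-resistant acid phosphatase of osteoclasts and macrophages (0.97, adjusted p = 3e-05). On Adgre1, Acp5 had a slope of -0.32 (adjusted p = 0.145).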

How the data were processed

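Epididymal fat RNA of 10 wt and 10 cre mice was labelled with biotin for arrays (GeneChip WT PLUS), per the labels' protocols. Values are log2 signals that the authors deposited, made with RMA in Transcriptome Analysis Console 4.0.2.15 on build mm10, per the submitters' processing notes. RMA evens array distributions, so differences are relative to the whole array. No counts exist for arrays, and the number of arrays limits precision. Of 22206 probe sets, 19572 had 1 gene symbol, 0 had several and 2634 are unnamed here; all 19572 matched RefSeq.

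limma 3.58.1 (R 4.3.3) was fitted to all probe sets, with genotype and batch, or with Adgre1 or Adipoq added, and Benjamini-Hochberg adjustment over all of them at 0.05. The fits were tested on simulated data. Single members were tested by exact two-sided permutation of genotype within batches (63504 regroupings, smallest p 3.1e-05). Correlations, 72 with Adgre1 or Adipoq and 7 between members, used 100000 permutations within genotype and batch; the limma adjusted p is the multiple-testing value for the former.

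Members and lists were chosen with earlier results of these data known. Named in full were 9 members fixed by symbol, those with an unadjusted p under 0.05 for genotype, the 5 highest and 5 lowest slopes on Adgre1 and on Adipoq, and up to 3 further lysosomal genes per group with the smallest p. Alternatives covered batch, scaling, dim probe sets, array weights, marker lists and each mouse left out.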

Additional observations from a re-analysis of the deposited data

Results flagged for a closer look

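In 4 of 72 groups (each measured member in each genotype) the most extreme mouse lay apart from the other 9, its gap to the nearest passing Dixon's 95% limit as a share of the range. Chance alone marks about 1 group in 20. Atp6ap1, a pump accessory protein, was at 10.02 in cre 9, with the next mouse at 11.34. Atp6v0d1 was at 12.21 in wt 6 (next 12.57), Atp6v1c1 at 11.03 in cre 6 (next 11.63) and Scarb2 at 12.98 in cre 7 (next 13.24). All 4 were the lowest of their group.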

How the results depend on the processing

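The count of probe sets differing by genotype (1) was 0 in batch 1, in batch 2 and with the replicate block, and 2 without the mice with genes of other organs or with the macrophage covariate; leaving out single mice gave 1 to 2. Whether replicate numbers pair mice was not settled. Deviations of same-numbered mice had r from -0.30 to 0.34, over 0.1 in 4 of 10 pairs. Of the 10 wt mice, 4 correlated best with the cre mouse of their own number in their batch. The replicate block left 0 members after adjustment and 3 before, with a mean difference of -0.19. Members with an unadjusted p for genotype (3) were 0 in batch 1 and 2 to 3 with single mice left out; the mean difference then ran from -0.24 to -0.08, and was 0.01 with the macrophage covariate. Members rising with Adgre1 (21) were 0 in batch 2 and 16 to 21 with single mice left out. Members falling with Adipoq (0) were 1 without the batch term (2.57% of all probe sets fell) or with Adipoq alone (3.68%), and 2 without the dimmest probe sets (3.78%). They were 3 with the adipocyte list mean (3.24%) or without the mice with genes of other organs (2.95%). Array weights gave 12 (5.58%), and leaving out single mice gave 0 to 12. The cause was not tested. Of 1782 single-member values, 22 gained and 12 lost a call; 108 had the opposite sign, 44 of them genotype differences, 25 Adgre1 slopes and 39 Adipoq slopes, of which 25 in all came from 1 batch alone, and none had been called at an adjusted p under 0.05.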
